A study of Mus musculus with 6 samples.

Results

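Imprinted genes are expressed mainly from the copy inherited from one parent, and 42 of them, in 17 clusters or single loci of the mouse genome, were followed here across 3 lines of pluripotent stem cells. A probe was assigned to a gene when its gene name in the deposited table equalled the gene's symbol, or, where no gene name did, when the symbol stood among its synonyms. By this rule 38 of the 42 genes had a probe, 83 probes in all of the 45281 on the array, and Snrpn was reached only as a synonym, on probes named Snurf. After a filter on detection, 29 of the 42 genes were tested among 12632 genes in all.

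RNA of 6 samples was hybridised to Illumina bead arrays, 2 arrays for each line. CL25 is an induced pluripotent stem (iPS) clone, labelled cl2.5 and low, that carries the construct PB-Oct4.2A.cherry. O2ACH iPS is an iPS line with the same construct and no such mark. Both are marked -/- in the labels, with no gene named, and the third line is embryonic stem (ES) cells without a stated construct. All 3 lines are of B6 background and were grown with LIF and the kinase inhibitors CHIR99021 and PD0325901 in medium with knockout serum replacement, so these are shared by every comparison. Each kind of cell is 1 line, and CL25 is 1 clone, so a difference between lines cannot be told apart from a difference between the kinds of cells they stand for.

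Imprints are marks of DNA methylation laid down in the egg or sperm at control regions, and they are kept through the wave of demethylation in the early embryo. In many clusters the control region sets which parental copy of several neighbouring genes is active, through an insulator or a long non-coding RNA. Imprints are known to be lost or altered in some mouse ES and iPS lines during culture or reprogramming. The arrays measured RNA from both parental copies together, so allelic expression was not measured.

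Between 35.9% and 37.5% of all probes were detected on an array, meaning a detection p under 0.05 against the array's negative controls. Across genes, replicate arrays correlated at 0.989 in CL25, 0.983 in O2ACH iPS and 0.981 in ES (Pearson's r), where genes are not independent replicates. All 12 markers of pluripotent cells were detected on every array, and their summed intensity was 62088 to 70133 in CL25, 61317 to 67105 in O2ACH iPS and 64725 to 69253 in ES. Dppa5a was the brightest of them by far, and Pou5f1, which encodes Oct4, separated the lines, with intensities of 593 and 538 in CL25, 1837 and 2150 in O2ACH iPS and 4584 and 5054 in ES. It fell in CL25 against O2ACH iPS (4.21-fold lower), in CL25 against ES (9.68-fold lower) and in O2ACH iPS against ES (2.30-fold lower), with adjusted p of 0.00416, 0.00061 and 0.0302 from limma. Whether the Pou5f1 probe reads RNA of the construct in the iPS lines and of the cells' own gene alike was not analysed. Of 13 fibroblast and feeder markers, 7 were detected on no array, among them Col1a1, Col3a1 and Lum, and the sums were 1191 to 1325 in CL25, 1293 to 1326 in O2ACH iPS and 1261 to 2180 in ES, where Acta2 alone gave 1037 on ES replicate 2. Of 14 extraembryonic endoderm markers, 7 were detected on no array, among them Gata4, Sox17 and Afp, while the sums were 5324 to 5663 in CL25, 2804 to 3864 in O2ACH iPS and 2776 to 3677 in ES. In this list Gata6 and Dab2 rose in CL25 against O2ACH iPS (3.99- and 5.57-fold, adjusted p = 0.0324 and 0.012 from limma) and against ES (4.86- and 4.53-fold, 0.0145 and 0.0105). Of its 7 tested markers, 5 had a positive log2 change in each of these comparisons. Amn (-0.08 and -0.40) and Sox7 (-0.23 and -0.02) had negative changes. Of 11 trophectoderm markers, Elf5 and Hand1 were detected on no array, and the sums were 5397 to 6027 in CL25, 2574 to 3636 in O2ACH iPS and 3019 to 3565 in ES. Sparc and Tfap2c made up most of these last 2 sums, and Ascl2, a trophectoderm marker, is itself imprinted. Of 9 tested trophectoderm markers, 5 had a positive log2 change in CL25 against O2ACH iPS and 6 in CL25 against ES. None of them passed in limma in these comparisons, and Cdx2, Gata3, Tead4 and Ascl2 had negative changes in the first. Gata3 had a fitted log2 change of 2.00 in O2ACH iPS against ES (adjusted p = 0.0402 from limma). Undetected in ES, it was at least 2.87-fold higher in O2ACH iPS on the background-corrected scale. Pou5f1, Gata6, Dab2 and the endoderm and trophectoderm sums separated CL25 from the other lines, as some imprinted genes did, and their part in the results below was not tested. In bulk RNA, fewer cells that express a gene and less RNA per cell cannot be told apart.

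The imprinted genes lie mainly on chromosome 7, with 20 of the 42, and chromosome 6, with 7. Peg3 and Usp29 are transcribed in opposite directions from neighbouring starts, and the stretch between the 2 annotated genes is shown because they moved in opposite directions. The upstream window of Slc38a4 is shown because this gene separated the 2 iPS lines. Both are from RefSeq on GRCm38.p6, 5′ to 3′, with each CG, the dinucleotide at which DNA methylation occurs, in capitals.
Peg3 and Usp29, between the genes (chr7:6730463-6730558, + strand): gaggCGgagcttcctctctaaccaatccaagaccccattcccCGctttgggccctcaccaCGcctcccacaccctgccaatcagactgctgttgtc
Slc38a4, upstream (chr15:97055957-97056206, - strand): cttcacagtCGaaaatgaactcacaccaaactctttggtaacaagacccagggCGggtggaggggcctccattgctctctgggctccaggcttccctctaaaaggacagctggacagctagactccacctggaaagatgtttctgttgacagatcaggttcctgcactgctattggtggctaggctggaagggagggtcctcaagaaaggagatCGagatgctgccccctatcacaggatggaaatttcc
Each holds 3 CG dinucleotides, in 96 bases between Peg3 and Usp29 and in 250 bases upstream of Slc38a4. The upstream windows of 250 bases of Peg3 and Usp29 held 8 and 14. Over the 36 imprinted genes with a RefSeq upstream window of 250 bases, the median number of CG was 10, against 6 over all 27025 genes with a window. The motif TGCCGC, which the imprint-keeping protein ZFP57 binds when it is methylated, stood on either strand in 5 of the 36 windows (13.9%), those of Copg2, Meg3, Nap1l5, Plagl1 and Zim1, and in 8.57% of all windows.

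H19, Igf2 and Mest also carry microRNAs within their annotated bounds, which the arrays did not measure. Usp29 also holds 2 mature microRNAs, and though it too had a wide gap between lines, they are not shown. Those of H19, Igf2 and Mest were picked as examples from hosts with wide gaps between lines or between arrays of a line. Their RefSeq mature sequences on GRCm38.p6 are shown, 5′ to 3′, with the seed (bases 2 to 8) in capitals, and no 2 of the 6 seeds are alike.
miR-675-5p, in H19 (chr7:142577112-142577133, - strand): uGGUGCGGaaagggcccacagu
miR-675-3p, in H19 (chr7:142577078-142577099, - strand): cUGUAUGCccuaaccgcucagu
miR-483-5p, in Igf2 (chr7:142654968-142654989, - strand): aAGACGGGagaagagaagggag
miR-483-3p, in Igf2 (chr7:142654932-142654952, - strand): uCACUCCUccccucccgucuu
miR-335-5p, in Mest (chr6:30741314-30741336, + strand): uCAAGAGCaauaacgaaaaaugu
miR-335-3p, in Mest (chr6:30741354-30741375, + strand): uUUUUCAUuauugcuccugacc

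In CL25 against O2ACH iPS, Usp29 and Slc38a4 rose and Peg3 fell, at an adjusted p under 0.05 from limma over all genes tested. These 3 of 29 genes stand beside 2.24% of all 12632 genes called in either direction (1.16% higher and 1.08% lower). In CL25 against ES, Usp29 rose and Phlda2 fell, 2 of 29 beside 4.16% of all genes (2.26% higher and 1.91% lower). In O2ACH iPS against ES, limma called 0 of 29, beside 0.807% of all genes (0.427% higher and 0.38% lower). At an unadjusted p under 0.05 there were 10 of 29 in CL25 against O2ACH iPS, 9 in CL25 against ES and 6 in O2ACH iPS against ES, beside 16.2%, 19.5% and 14.1% of all genes. Of the 29 genes, 23 were detected on all 6 arrays. The comparisons share arrays, since each line enters 2 of them.

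Each change below is the difference between 2 line means on the normalised log2 scale, with its SE (n = 2 arrays per line). Per-array values are deposited intensities, and overlap was judged on the normalised scale. The median change of the 29 genes was -0.33 in CL25 against O2ACH iPS (-0.02 over all genes), -0.20 in CL25 against ES (-0.02 over all genes) and 0.07 in O2ACH iPS against ES (-0.003 over all genes). Their median absolute change was 0.45, 0.38 and 0.20 in the 3 comparisons, against 0.22, 0.24 and 0.21 over all genes. In CL25 against O2ACH iPS the arrays of the lines did not overlap for 18 of 29 genes, 5 higher and 13 lower, where 48.8% of all genes did not overlap (23.4% higher and 25.4% lower). In CL25 against ES these were 18 of 29, 6 higher and 12 lower, beside 50.5% of all genes (23.5% higher and 27% lower). In O2ACH iPS against ES they were 13 of 29, 6 higher and 7 lower, beside 42.2% (20.9% higher and 21.3% lower).

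**Figure D1:**
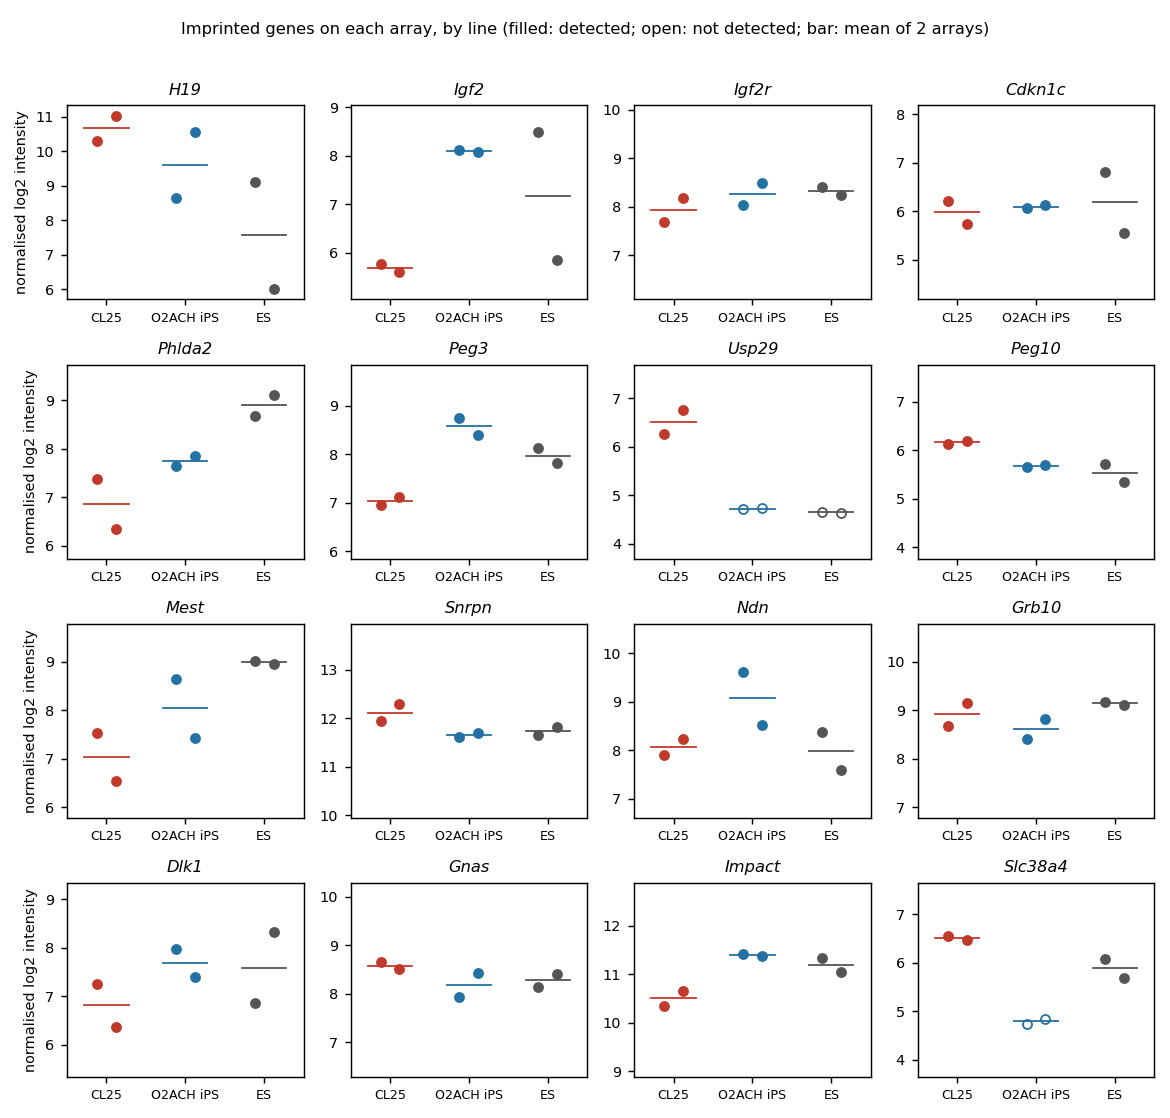
Normalised log2 intensity (vertical axes) of 16 imprinted genes on each array, by line (horizontal axes), with filled points detected, open points not detected, and bars at the mean of the 2 arrays of a line. Usp29 was detected only on the CL25 arrays, Slc38a4 on no O2ACH iPS array, and the ES arrays lay far apart for H19 and Igf2.

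**Figure D2:**
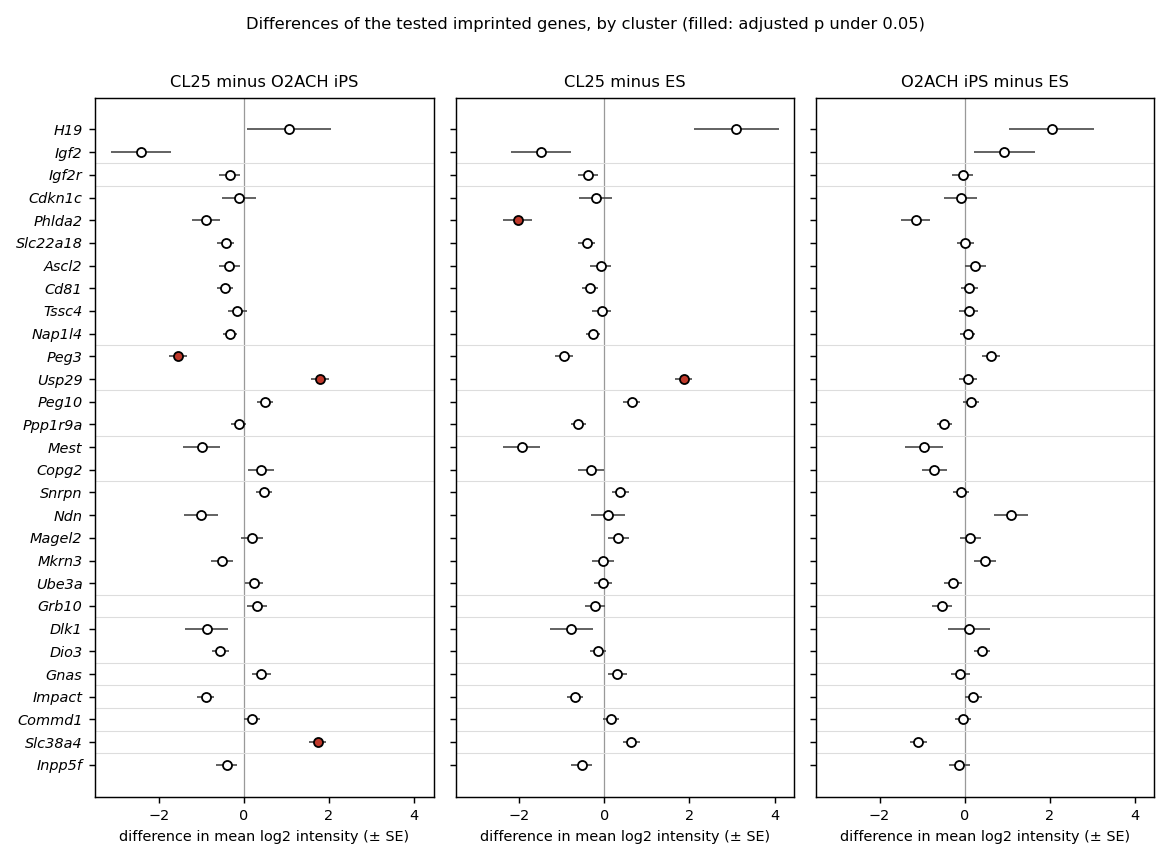
Differences in mean log2 intensity (horizontal axes) with SE for the 29 tested imprinted genes, grouped by cluster, in the 3 comparisons, with filled points at an adjusted p under 0.05. Usp29, Slc38a4 and Peg3 were called in CL25 minus O2ACH iPS, Usp29 and Phlda2 in CL25 minus ES, and none in O2ACH iPS minus ES.

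Peg3 and Usp29 lie head to head on chromosome 7 and are expressed from the paternal copy. Peg3 encodes a zinc finger protein and Usp29 a ubiquitin-specific protease. The brighter Usp29 probe had intensities of 153 and 175 in CL25, 87.7 and 93.7 in O2ACH iPS and 85.6 and 88.5 in ES. It was detected on both CL25 arrays and on none of the other 4, so the lines did not overlap. By this probe, on the background-corrected scale, Usp29 was at least 2.65-fold higher in CL25 than in O2ACH iPS (adjusted p = 0.012 from limma). Against ES it was at least 2.73-fold higher (adjusted p = 0.00609 from limma). The fitted changes were 1.79 ± 0.21 and 1.86 ± 0.21. On the normalised log2 scale its SD was 0.34 in CL25, and 0.015 in O2ACH iPS and 0.019 in ES, where it was undetected. The SE pools all of these, so it is not the spread of CL25. Usp29 met the detection filter only through the CL25 arrays, where it was high, and without that filter the adjusted p was 0.0472 and 0.0283 from limma.

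A second Usp29 probe had intensities of 114 and 140 in CL25, 80.5 and 110 in O2ACH iPS and 75.4 and 87.8 in ES. It was detected on both CL25 arrays and on O2ACH iPS replicate 2, which lay just under the dimmer CL25 array. Fitted with all kept probes one by one, it gave 0.83 ± 0.34 in CL25 against O2ACH iPS and 1.21 ± 0.34 in CL25 against ES, without passing. The call of Usp29 was lost in CL25 against O2ACH iPS with the mean of its probes (1.31, limma, adjusted p = 0.0583), without CL25 replicate 2 (1.54, 0.0815) and without O2ACH iPS replicate 1 (1.81, 0.0835), and in CL25 against ES without CL25 replicate 2 (1.62, 0.0556). Without background correction the fitted changes were 0.81 and 0.86, smaller than the bounds given for the brighter probe.

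For Peg3, CL25 was the lowest line. The brightest probe had intensities of 201 and 207 in CL25, 449 and 412 in O2ACH iPS and 343 and 309 in ES. Both CL25 arrays were lowest, both O2ACH iPS arrays highest, and no 2 lines overlapped. Peg3 fell by 1.55 ± 0.21 in CL25 against O2ACH iPS (2.93-fold lower, adjusted p = 0.0175 from limma). In CL25 against ES it gave -0.94 ± 0.21 (adjusted p = 0.0553 from limma), and in O2ACH iPS against ES 0.61 ± 0.21 (0.257 from limma), neither past the threshold. With median scaling Peg3 passed in CL25 against ES (adjusted p = 0.0418 from limma).

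The second kept Peg3 probe, at 103 and 95.1 in CL25, 153 and 124 in O2ACH iPS and 126 and 118 in ES, was not well above background in CL25. On the background-corrected scale it was at least 2.15-fold lower there than in O2ACH iPS and at least 1.56-fold lower than in ES. Neither difference passed with all kept probes fitted (limma, adjusted p = 0.0864 and 0.192). The call of Peg3 in CL25 against O2ACH iPS was lost without CL25 replicate 1 or 2 (limma, adjusted p = 0.11 and 0.116), without O2ACH iPS replicate 1 (0.118) and without the detection filter (0.0621), with changes between -1.63 and -1.38. Zim1, the maternally expressed zinc finger gene of the cluster, was detected on no array.

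**Figure D3:**
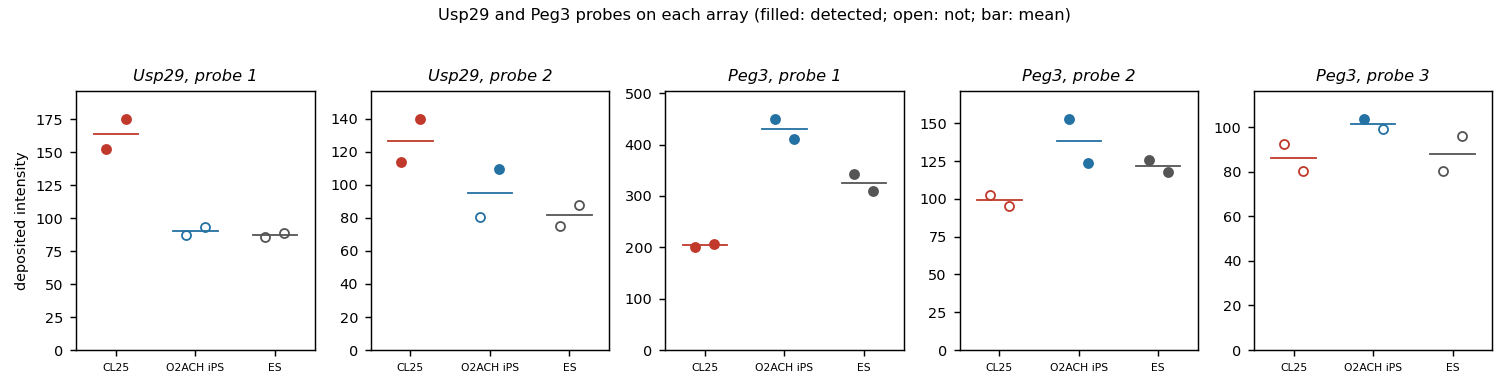
Deposited intensity (vertical axes, from 0) of each Usp29 and Peg3 probe detected on at least 1 array, by line, with filled points detected, open points not, and bars at line means. Both Usp29 probes were brightest on the CL25 arrays, where the first 2 Peg3 probes were dimmest.

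Slc38a4, a paternally expressed amino acid transporter gene on chromosome 15, separated the 2 iPS lines. Its single probe had intensities of 171 and 156 in CL25, 88.3 and 96.9 in O2ACH iPS and 133 and 124 in ES. It was detected on both CL25 and both ES arrays and on neither O2ACH iPS array, with no overlap between any 2 lines. On the background-corrected scale Slc38a4 was at least 2.66-fold higher in CL25 than in O2ACH iPS (fitted change 1.73 ± 0.20, adjusted p = 0.0112 from limma). Without background correction the fitted change was smaller than this bound.

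In O2ACH iPS against ES, Slc38a4 did not pass (adjusted p = 0.0644 from limma), where it was at least 1.71-fold lower on the background-corrected scale. Over 13 alternatives this change ran from -1.27 to -0.46. In CL25 against ES it gave 0.64 ± 0.20 (adjusted p = 0.134 from limma). The call in CL25 against O2ACH iPS was lost without CL25 replicate 1 or 2 (limma, adjusted p = 0.0768 and 0.0815) and without O2ACH iPS replicate 1 (0.0835), with changes of 1.68 to 1.77, and the fitted change was 0.78 without background correction.

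H19 and Igf2 lie on distal chromosome 7 and share enhancers, and an insulator bound by CTCF on the maternal copy directs them to the H19 non-coding RNA there, while the paternal copy expresses the growth factor Igf2. The brighter H19 probe had intensities of 1391 and 2237 in CL25, 419 and 1583 in O2ACH iPS and 620 and 138 in ES. CL25 arrays lay above both ES arrays, O2ACH iPS overlapped with each of the other lines, and ES replicate 2 was dimmest of all. The H19 change was 3.10 ± 0.99 in CL25 against ES (adjusted p = 0.144 from limma), 1.06 ± 0.99 in CL25 against O2ACH iPS (0.673) and 2.05 ± 0.99 in O2ACH iPS against ES (0.41).

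Igf2, with 1 probe, showed another order. Its intensities were 129 and 116 in CL25, 312 and 344 in O2ACH iPS and 427 and 131 in ES. The probe was detected on all 6 arrays, both CL25 arrays lay under every other array, and ES replicate 2 was close to CL25 while ES replicate 1 was brightest. Igf2 gave -2.42 ± 0.71 in CL25 against O2ACH iPS (adjusted p = 0.151 from limma), -1.49 ± 0.71 in CL25 against ES (0.314) and 0.93 ± 0.71 in O2ACH iPS against ES (0.621).

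The ES arrays thus differed from each other at both genes. On the normalised log2 scale they were 3.12 apart for H19, the difference ranked 2 of 12632 genes by size, and 2.64 apart for Igf2, ranked 9, where the median gene differed by 0.25. The 2 O2ACH iPS arrays were 1.93 apart for H19 (ranked 29). ES replicate 2, the dimmer array for both genes, also had the higher summed fibroblast and feeder signal, at 2180 against 1261 on ES replicate 1. Acta2 alone gave 1037 and 185 of these sums, and the part of this signal was not tested.

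This spread enters the error of every H19 and Igf2 change, because the fit pools the lines. From the CL25 and O2ACH iPS arrays alone, Igf2 passed in that comparison (-2.42, limma, adjusted p = 0.00586). It passed there in 3 of 13 alternatives, each of which left out 1 or both ES arrays, and in none of the rest. Over the 13 its change ran from -2.50 to -1.51. Without ES replicate 1, H19 was 4.67 higher in CL25 against ES, and Igf2 was 2.26 higher in O2ACH iPS against ES and had -0.17 in CL25 against ES. Without ES replicate 2, Igf2 was -2.80 in CL25 against ES and -0.38 in O2ACH iPS against ES, a turned sign. H19 was then 1.55 and 0.49 higher in CL25 and in O2ACH iPS against ES. Either way ES was 1 array, whose spread does not enter the error, so only the sizes of these changes are given. The dimmer H19 probe, at 550 and 734 in CL25, 211 and 487 in O2ACH iPS and 254 and 93.3 in ES, went the same way in all 3 comparisons (1.07, 2.95 and 1.88).

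**Figure D4:**
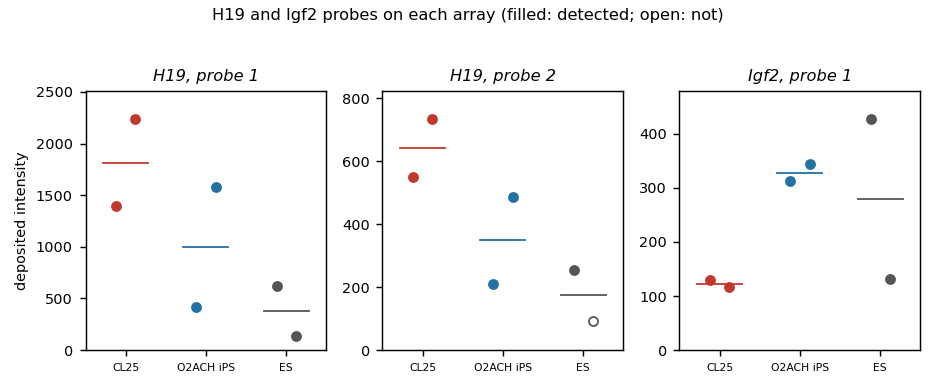
Deposited intensity (vertical axes, from 0) of the 2 H19 probes and the Igf2 probe on each array, by line, with filled points detected, open points not, and bars at line means. H19 was bright and Igf2 dim on both CL25 arrays, and ES replicate 2 was dim for both genes.

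Igf2r encodes the receptor that takes up Igf2 for breakdown, and it is expressed from the maternal copy on chromosome 17. Its brighter probe had intensities of 289 and 361 in CL25, 302 and 434 in O2ACH iPS and 409 and 396 in ES. CL25 overlapped with O2ACH iPS but lay below ES. The changes were small, at -0.33 ± 0.24 in CL25 against O2ACH iPS, -0.38 ± 0.24 in CL25 against ES and -0.05 ± 0.24 in O2ACH iPS against ES (limma, adjusted p of 0.576, 0.458 and 0.953). Airn, the paternal non-coding RNA that overlaps Igf2r, had no probe by the rule.

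The Kcnq1ot1 cluster, next to H19 and Igf2 on chromosome 7, holds growth-restraining genes expressed mainly from the maternal copy, several of them in placenta. All 7 of its tested genes had a negative fitted change in CL25 against O2ACH iPS, with a median of -0.34. They also did in CL25 against ES, with a median of -0.26. Of all genes, 52.2% and 52.5% had a change that was not positive. Slc22a18 was detected on neither CL25 array, where the mean lowest signal among detected probes was 5.07 on the normalised scale. This lay above its means of 4.96 in O2ACH iPS and 4.95 in ES, so no lower level in CL25 is shown for it. Ascl2 was detected on only 3 arrays, and its lines overlapped in both CL25 comparisons. In O2ACH iPS against ES 5 of 7 were positive, and 1 of these 21 changes passed the test, that of Phlda2. A dim probe named Tssc8, an older name of Kcnq1ot1 itself, went the other way, at 0.25 ± 0.26 and 0.24 ± 0.26 in the CL25 comparisons. Both CL25 comparisons share the CL25 arrays, and the higher trophectoderm and endoderm sums of CL25 stand beside them.

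Phlda2, a pleckstrin homology domain protein that limits placental growth, had intensities of 245 and 149 in CL25, 241 and 303 in O2ACH iPS and 481 and 670 in ES. Both ES arrays lay above all others, while CL25 replicate 1 and O2ACH iPS replicate 1 were nearly equal in deposited intensity. On the normalised scale no 2 lines overlapped. Phlda2 fell by 2.04 ± 0.34 in CL25 against ES (4.11-fold lower, adjusted p = 0.0215 from limma). It gave -1.15 ± 0.34 in O2ACH iPS against ES (adjusted p = 0.207 from limma) and -0.89 ± 0.34 in CL25 against O2ACH iPS (0.255).

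The Phlda2 call was lost without CL25 replicate 2 (-1.53, limma, adjusted p = 0.0937), without ES replicate 2 (-1.82, 0.0947) and without the detection filter (0.091). Cdkn1c, the cell cycle inhibitor p57, had intensities of 150 and 121 in CL25, 126 and 141 in O2ACH iPS and 176 and 119 in ES. Its lines overlapped in all 3 comparisons, with changes of -0.11 ± 0.39, -0.20 ± 0.39 and -0.09 ± 0.39 in CL25 against O2ACH iPS, CL25 against ES and O2ACH iPS against ES.

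Cd81, a tetraspanin, was the brightest of the cluster's probes, at 6190 and 4790 in CL25, 6581 and 6996 in O2ACH iPS and 5979 and 7181 in ES. Its changes of -0.45 ± 0.19 in CL25 against O2ACH iPS and -0.34 ± 0.19 in CL25 against ES did not pass. The other tested genes were the histone chaperone gene Nap1l4, Tssc4, the transporter gene Slc22a18 and Ascl2, a transcription factor of trophoblast. Their changes lay between -0.43 and -0.07 in the CL25 comparisons, and Slc22a18 was not well above background in CL25.

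Mest, a paternally expressed gene of the hydrolase fold on chromosome 6, passed in no comparison in the main fit. In CL25 against ES it passed in 5 of 13 alternatives to that fit. Its brightest probe had intensities of 266 and 162 in CL25, 422 and 244 in O2ACH iPS and 583 and 605 in ES. Both ES arrays were highest, and CL25 replicate 1 lay between the 2 O2ACH iPS arrays. The change was -1.94 ± 0.44 in CL25 against ES (adjusted p = 0.0588 from limma), -0.99 ± 0.44 in CL25 against O2ACH iPS (0.335) and -0.95 ± 0.44 in O2ACH iPS against ES (0.395).

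The 2 other Mest probes gave -1.98 ± 0.40 and -1.67 ± 0.39 in CL25 against ES with all kept probes fitted, and the first of them passed (limma, adjusted p = 0.039). Mest also passed in CL25 against ES without O2ACH iPS replicate 1 (limma, adjusted p = 0.0297) or 2 (0.028), from the 4 arrays of the 2 lines (0.0281) and with median scaling (0.0421). Copg2, its neighbour in the antisense direction and a coat protein of vesicles, had intensities of 290 and 295 in CL25, 173 and 290 in O2ACH iPS and 299 and 404 in ES, and changes of 0.41 ± 0.30, -0.31 ± 0.30 and -0.71 ± 0.30 in CL25 against O2ACH iPS, CL25 against ES and O2ACH iPS against ES.

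Peg10, derived from a retrotransposon and needed in placenta, lies elsewhere on chromosome 6. Its probe had intensities of 146 and 141 in CL25, 113 and 122 in O2ACH iPS and 118 and 112 in ES. Both CL25 arrays were highest, with changes of 0.49 ± 0.19 against O2ACH iPS and 0.64 ± 0.19 against ES that did not pass (limma, adjusted p = 0.27 and 0.122). Its neighbour Ppp1r9a, which encodes the actin-binding protein neurabin, went the other way against ES, at -0.61 ± 0.17 in CL25 and -0.48 ± 0.17 in O2ACH iPS, neither past the threshold (limma, adjusted p = 0.11 and 0.281).

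The Snrpn cluster on chromosome 7 corresponds to the human Prader-Willi region, and 5 of its 6 genes were tested, none of which passed in limma. At an unadjusted p under 0.05 there were 2 in CL25 against O2ACH iPS, 0 in CL25 against ES and 1 in O2ACH iPS against ES, beside 16.2%, 19.5% and 14.1% of all genes. Snrpn, a core protein of spliceosomal particles whose transcript also codes for Snurf, had intensities of 4308 and 5155 in CL25, 2903 and 3365 in O2ACH iPS and 3229 and 3826 in ES. Both CL25 arrays were brightest, with changes of 0.46 ± 0.19 against O2ACH iPS and 0.38 ± 0.19 against ES (limma, adjusted p = 0.298 and 0.342), and the 2 other kept probes also gave positive changes.

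Ndn, which encodes necdin, a MAGE family protein of neurons, had intensities of 323 and 372 in CL25, 771 and 443 in O2ACH iPS and 400 and 279 in ES. Both O2ACH iPS arrays were above all others, far apart from each other, while CL25 and ES overlapped. Ndn gave -1.01 ± 0.40 in CL25 against O2ACH iPS (adjusted p = 0.275 from limma), 1.09 ± 0.40 in O2ACH iPS against ES (0.284) and 0.08 ± 0.40 in CL25 against ES (0.947). Mkrn3, a ring finger gene near it, gave -0.52 ± 0.26 and 0.48 ± 0.26 in the first pair of these comparisons, Magel2 was detected on 2 arrays, and Ube3a, a ubiquitin ligase imprinted in neurons, changed by 0.28 or less in size.

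In the Dlk1 and Meg3 cluster of chromosome 12, Meg3, Rian and Mirg are maternal non-coding RNAs, and their silencing is known from some mouse iPS lines. The 3 probes named Meg3 were detected on no array, and Rian and Mirg had no probe by the rule. A probe named Gtl2, an older name of Meg3, carries the same target key as 2 of the Meg3 probes and was detected on all 6 arrays, unlike a second probe of that name, which was detected on none. The first had intensities of 766 and 794 in CL25, 515 and 447 in O2ACH iPS and 406 and 621 in ES.

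Both CL25 arrays were highest for the Gtl2 probe, and O2ACH iPS lay within the range of ES. The changes were 0.66 ± 0.26 in CL25 against O2ACH iPS, 0.73 ± 0.26 in CL25 against ES and 0.07 ± 0.26 in O2ACH iPS against ES, none of which passed (limma, adjusted p of 0.27, 0.181 and 0.941 with all kept probes fitted). Which sequences of the transcript the Gtl2 and Meg3 probes read was not analysed here, and the Gtl2 probe was singled out after its values were seen.

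Dlk1 is a paternally expressed membrane protein of the Notch ligand family. Its brighter probe had intensities of 231 and 150 in CL25, 289 and 241 in O2ACH iPS and 180 and 413 in ES. Both ES arrays were 1.46 apart on the normalised log2 scale and enclosed O2ACH iPS. This probe gave -0.88 ± 0.50 in CL25 against O2ACH iPS and -0.78 ± 0.50 in CL25 against ES (limma, adjusted p of 0.46 and 0.463). In O2ACH iPS against ES it gave 0.10 ± 0.50 (limma, adjusted p = 0.953). A dimmer kept Dlk1 probe gave -0.14 ± 0.39, -0.26 ± 0.39 and -0.12 ± 0.39 in the same order, with overlap in every comparison. The deiodinase gene Dio3 was detected on both O2ACH iPS arrays and on no other array, so it met the filter only through that line.

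Impact, a paternally expressed regulator of translation under amino acid shortage on chromosome 18, had intensities of 1448 and 1726 in CL25, 2535 and 2718 in O2ACH iPS and 2562 and 2289 in ES. Both CL25 arrays were lowest and did not overlap with either line. The change was -0.89 ± 0.20 against O2ACH iPS (adjusted p = 0.0732 from limma, and 0.0422 without background correction) and -0.69 ± 0.20 against ES (0.11 from limma). Its dimmer probe gave -0.68 ± 0.18 and -0.39 ± 0.18.

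Grb10, a maternally expressed adaptor that restrains insulin signalling, on chromosome 11, had intensities of 492 and 640 in CL25, 365 and 525 in O2ACH iPS and 643 and 666 in ES. On the normalised scale its lines overlapped except O2ACH iPS and ES, where the change was -0.53 ± 0.24 (adjusted p = 0.372 from limma). Gnas, which encodes the stimulatory G protein subunit on chromosome 2, had intensities of 487 and 435 in CL25, 281 and 416 in O2ACH iPS and 347 and 438 in ES on its brightest probe. Its deposited intensities overlapped between CL25 and ES but its normalised values did not, and the changes of 0.41 ± 0.23 and 0.31 ± 0.23 against O2ACH iPS and ES did not pass. Commd1 on chromosome 11 and the phosphatase gene Inpp5f on chromosome 7 changed by 0.19 or less and by 0.53 or less in size, and neither passed.

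The detection filter left out 9 genes that had a probe: Asb4, Meg3, Nap1l5, Nnat, Peg12, Plagl1, Sgce, Zim1 and Zrsr1. Their probes had intensities of 66.4 to 110, near the array medians of 87.3 to 96.0, and only Nnat, a proteolipid of neurons, was detected on 1 array, ES replicate 2. A probe not detected gives no level for its gene.

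Among 48 names of other imprinted genes, 20 were tested. In CL25 against O2ACH iPS 1 of the 20 rose and 1 fell, beside the same 2.24% of all genes, and both lie next to Grb10 on chromosome 11. Ddc, the decarboxylase of dopamine and serotonin synthesis, rose by 1.14 ± 0.20 (adjusted p = 0.039 from limma) and Cobl, an actin nucleator, fell by 1.42 ± 0.21 (adjusted p = 0.0254 from limma). Cobl also fell in CL25 against ES, by 1.36 ± 0.21 (adjusted p = 0.0175 from limma), the 1 of 20 that passed there, beside 4.16% of all genes, and none passed in O2ACH iPS against ES. At an unadjusted limma p under 0.05, 6 of the 20 stood in CL25 against O2ACH iPS, 2 in CL25 against ES and 4 in O2ACH iPS against ES, beside the same 16.2%, 19.5% and 14.1%. Of 29 genes of imprint keeping and DNA methylation, 23 were tested and none passed in limma in any comparison. At an unadjusted p under 0.05 there were 4 of 23 in CL25 against O2ACH iPS, 7 in CL25 against ES and 4 in O2ACH iPS against ES, beside 16.2%, 19.5% and 14.1% of all genes. Their changes ran from -1.59 ± 0.35 for Dnmt3l, a cofactor of methylation in germ cells, to 3.16 ± 0.79 for Dppa3, which protects imprints in the zygote, in CL25 against O2ACH iPS (limma, adjusted p = 0.0743 and 0.1). In CL25 against ES, Dnmt3l and Dppa3 gave -0.87 ± 0.35 and 3.55 ± 0.79 (limma, adjusted p = 0.234 and 0.0551).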

How the data were processed

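RNA from 6 samples was measured on Illumina bead arrays, grouped by the line in their titles. Per the file headers, the deposited table gives, for every probe and array, an average intensity over beads and a p-value of detection. Judged from the values, the deposited intensities had been neither background-subtracted nor normalised between arrays. Neither the array model nor the scanner software is given in the sources used here. Background was corrected by nec in limma 3.58.1 (R 4.3.3), using the detection p-values and an offset of 16, and log2 values were quantile-normalised. Probes had to be detected (p under 0.05) on 2 or more of the 6 arrays, which left 18175. A gene's value is that of whichever kept probe was brightest on average. Names were updated through RefSeq symbols of GRCm38.p6, except that 8 probes with an older name of a listed gene kept the table's name. One model with 3 line means (3 residual and 4.27 prior degrees of freedom) was fitted, with Benjamini-Hochberg adjustment over all genes. According to the series' design text, the samples within each line are biological replicates, so p-values measure the spread between them, not between lines of a kind. The number of arrays limits the precision.

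Undetected on both arrays of a line, a probe has only a bound there. "At least N-fold" then compares the brighter line's mean with the mean, over the dim line's arrays, of the lowest signal among detected probes or the dim probe's signal if that is higher. Such a bound holds for that probe on the background-corrected scale, not for other probes of the gene or other processing. The genes and lists were chosen with earlier results of these data known. Per-array values are given for genes called in any comparison, for those that differed by at least 1 (log2) without overlap, and for a list of well-known imprinted genes. Cd81, Copg2, Ppp1r9a, Mkrn3, Dppa3, Dnmt3l, the markers Pou5f1, Gata6, Dab2 and Gata3, and the Gtl2 and Tssc8 probes fell outside this rule and were singled out after their values were seen. The fit was tested on simulated data.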

Additional observations from a re-analysis of the deposited data

How the results depend on the processing

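The 13 alternatives per change were no detection filter, no background correction, median scaling, the mean of kept probes, all kept probes one by one, only the 4 arrays of the 2 lines, the replicate block, and each array left out in turn. Over the 16 named genes these gave 624 changes: 577 kept direction and side of the threshold, 14 lost a call, 15 gained one, and 18 uncalled changes turned sign. Imprinted genes called in CL25 against ES numbered 2, against 4 with median scaling and 1 without the detection filter. Over all genes, calls fell to 58, 191 and 24 without the filter in CL25 against O2ACH iPS, CL25 against ES and O2ACH iPS against ES, where more genes are tested (283, 526 and 102 with it), and to 44 in the last from its 4 arrays alone. Leaving out 1 array gave 0 to 4, 0 to 3 and 0 to 1 imprinted genes and 35 to 395, 75 to 573 and 14 to 230 genes in all, in the same order. Replicate numbers 1 and 2 are shared by the lines, but nothing states that they pair samples; deviations of same-numbered arrays correlated at 0.30, 0.18 and 0.32 between lines. With the number as a replicate block, 649, 911 and 272 genes were called, with 3, 4 and 1 imprinted genes: Peg3 and Mest gained a call in CL25 against ES (limma, adjusted p = 0.0369 and 0.0125) and Slc38a4 in O2ACH iPS against ES (0.0415). The authors' processed values were not used: their identifiers match no probe column, so that alternative was not run. Dim probes near background, such as those of Usp29 and Slc38a4, limit the size of a change that can be read.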
